A study of Homo sapiens with 6 samples.

Results

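To explore how the p53 pathway stood after interleukin-1β (IL-1β) was silenced in oral cancer cells, 31 genes of that pathway were examined in Cal27 cells, which derive from a squamous cell carcinoma of the human tongue. The 31 genes were listed by name, comprising p53 regulators and well known p53 target genes, and a gene was measured where a probe set, the array's unit of several short probes against the same transcript, carried its symbol and no other. This held for 28 genes with 77 probe sets, out of 19775 genes so named on the array. BBC3 (the death protein PUMA) was named only beside other genes on its probe set, and BTG2 and FDXR were not named in the annotation used, so these genes were not analysed here, nor were the genes for p53 and its relative p63. Cells of the LV-shIL-1β group carried a lentiviral short hairpin RNA against IL-1β, and cells of the LV-shNC group carried a scrambled hairpin. Both groups were Cal27 cells kept in puromycin at 2 μg/mL for 2 weeks, and 3 Affymetrix Human Genome U133 Plus 2.0 arrays were run for each. Whether separate cultures stood behind the 3 arrays of a group was not stated, so the p-values reflect only how these arrays spread, which may be technical. A single hairpin was used, so effects of that hairpin and of IL-1β loss cannot be told apart.

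p53 is a transcription factor that the ubiquitin ligase MDM2 and its partner MDM4 keep in check in unstressed cells. DNA damage and other stresses release it, and it then switches on genes of cell cycle arrest, DNA repair, cell death and metabolism, MDM2 among them, which closes a feedback loop. Oral squamous carcinomas commonly carry a mutated p53, and Cal27 is known as such a line. Several of the target genes also answer to other stress-activated factors, GDF15 to ATF4 of the amino acid and unfolded protein response and GADD45B to NF-κB.

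Most p53 genes differed little between the groups. Of the 28 measured genes, GDF15, a secreted stress cytokine, rose 1.68-fold in LV-shIL-1β, and DDB2, a sensor of ultraviolet DNA damage, fell 1.28-fold. A gene passed where limma gave a Benjamini-Hochberg adjusted p under 0.05 over all probe sets tested. The other 26 did not, among them the classical p53 targets CDKN1A, MDM2 and BAX on the probe set that stands for each gene. The share called was 3.57% in each direction, beside 4.03% called higher and 4.5% called lower among all 12311 genes whose brightest probe set was tested. The split of calls over all genes moved with the scaling, from 496 higher and 554 lower as deposited to 417 and 719 after each array was centred on its median. GDF15 was also the only one of the 28 past a fold of 1.5 with unadjusted limma p under 0.05. This rule was run without the signal filter and was passed by 0.561% of all 19775 genes. The median log2 fold change of the 28 genes was 0.05, beside 0.00 over all genes, and after median centring these medians were 0.03 and -0.02.

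The target of the hairpin was lower on every LV-shIL-1β array. On the brighter of its 2 probe sets, IL1B had signals of 2677, 2611 and 2494 in LV-shNC against 1569, 1569 and 1596 in LV-shIL-1β. Its log2 fold change was -0.72 ± 0.04 (SE). Over all 6 arrays the median signal lay between 18.4 and 18.9. Every pair of arrays within a group correlated more closely (0.995 or higher) than any pair between groups (0.994 or lower). For GAPDH the 3′ signal over the 5′ signal, a sign of RNA integrity, was on the log2 scale between -0.06 and 0.01 in LV-shNC and between 0.02 and 0.05 in LV-shIL-1β and did not overlap, and that of ACTB did overlap. Of the 4 measured markers of squamous epithelium, KRT5, KRT14 and PKP1 fell and DSG3 did not pass (-0.10 ± 0.09), and their summed signal was between 11311 and 11675 in LV-shNC and between 8876 and 9238 in LV-shIL-1β. Of the 4 leukocyte markers, CD14 rose from 49.5 to 70.4, CD79A went the other way without passing (27.9 to 22.3, log2 fold change -0.33 ± 0.12, no overlap), and the defining PTPRC and CD3E lay below the filter. Their summed signal was between 91.5 and 97.6 in LV-shNC and between 108 and 114 in LV-shIL-1β. Of 5 fibroblast markers, 3 passed the filter, of which LUM (27.5 to 12.4) and COL1A2 (23.2 to 16.1) fell. Both were low and passed the filter through the LV-shNC arrays only, since every LV-shIL-1β value lay under its signal of 18.6. The summed signal of the fibroblast markers was between 128 and 149 in LV-shNC and between 98.3 and 114 in LV-shIL-1β. Of 4 endothelial markers, 1 passed the filter, and their summed signal was between 62.0 and 65.4 and between 60.5 and 62.1. The part of these differences in the results below was not tested.

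A p53 response element is made of 2 decamers of a degenerate consensus, and some p53 genes carry one close to their start of transcription. RefSeq promoters (assembly GRCh38.p14, 250 bases before to 50 after each start) matched 26 of the 31 genes. No promoter was matched for GADD45A, PHLDA3, RRM2B, TNFRSF10B and TP53INP1. The consensus, searched as 2 adjoining decamers with the core C and G bases of each required and up to 3 mismatches elsewhere, reads the same on both strands and lay in the promoters of 7 of the 26 genes (26.9%). It lay in 1.37% of 27305 genes with a promoter in the table. A single decamer with no mismatch, which can overlap such an element, lay in 7 of the 26 (26.9%) and in 8.06% of all. The elements of the 6 measured genes are shown because they include both genes that were called, with the 20 bases of the match in capitals and up to 5 neighbouring bases on each side, on the strand of the gene.

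AEN: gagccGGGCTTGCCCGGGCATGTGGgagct
DDB2: gctccAAGCTGGTTTGAACAAGCCCtgggc
FAS: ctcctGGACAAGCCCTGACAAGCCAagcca
GDF15: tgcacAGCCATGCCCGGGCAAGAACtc
MDM2: gagctGGTCAAGTTCAGACACGTTCcgaaa
SESN1: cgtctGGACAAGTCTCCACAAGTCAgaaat

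The coordinates that follow are those of the printed stretches, neighbouring bases included, while distances are from a start to the first base in capitals. The DDB2 stretch lay at chr11:47214964-47214993 on the plus strand, with the match beginning at -5 from one of the annotated starts and 1 mismatch. The GDF15 stretch lay at chr19:18386181-18386207 on the plus strand, with the match beginning at position 29, counting the start as 1, and 3 mismatches. The MDM2 stretch lay at chr12:68808918-68808947 on the plus strand, with the match beginning at -94 from one of the downstream starts, with 2 mismatches. The stretches of AEN (chr15:88621301-88621330, plus strand) and FAS (chr10:88991304-88991333, plus strand) had 2 mismatches each, and that of SESN1 (chr6:109009013-109009042, minus strand) had 3. A match is a description of these letters and does not show binding. The 6 genes with an element went in both directions, 4 with a positive and 2 with a negative log2 fold change, from -0.35 for DDB2 to 0.75 for GDF15 with a median of 0.12. The 17 measured genes whose promoter held no such element ran from -0.20 to 0.34 with a median of 0.05, 11 of them positive. This difference was not tested. The search covered only 250 bases before to 50 after each start, so an element farther away would have been missed.

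Among secreted and metabolic targets, GDF15 had the largest change of the 28 genes. Its signal was 168, 139.9 and 139.6 in LV-shNC against 262, 243 and 245 in LV-shIL-1β. All LV-shIL-1β arrays lay well above all LV-shNC arrays, with LV-shNC array 1 the highest of its group. The log2 fold change was 0.75 ± 0.08 (SE, n = 3 in each group, 95% confidence interval 0.57 to 0.93, limma, Benjamini-Hochberg adjusted p = 0.000838). In bulk RNA, a change in how many cells express a gene and a change in RNA per cell cannot be told apart. GDF15, like PERP and GADD45B below, was read by a probe set of the _x_at type, whose probes can also bind related transcripts. Its 2 other probe sets lay below the filter on low signal and differed in sign (log2 fold changes of 0.34 and -0.23).

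TP53I3, a quinone oxidoreductase also known as PIG3, had signals of 52.8, 53.4 and 56.9 in LV-shNC against 61.5, 66.7 and 67.2 in LV-shIL-1β. The groups did not overlap, and the log2 fold change of 0.26 ± 0.07 (SE) lay just short of the threshold (limma, Benjamini-Hochberg adjusted p = 0.0592). TIGAR, which lowers glycolytic flux and favours the pentose phosphate pathway, had signals of 199, 218 and 216 in LV-shNC against 229, 261 and 236 in LV-shIL-1β. These did not overlap either, at a log2 fold change of 0.19 ± 0.07 (limma, Benjamini-Hochberg adjusted p = 0.118). SESN1, a stress-induced inhibitor of mTORC1, stood at -0.06 ± 0.07 and did not pass, although its signals of 53.9 to 55.2 in LV-shNC against 51.2 to 53.4 in LV-shIL-1β did not overlap.

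**Figure D1:**
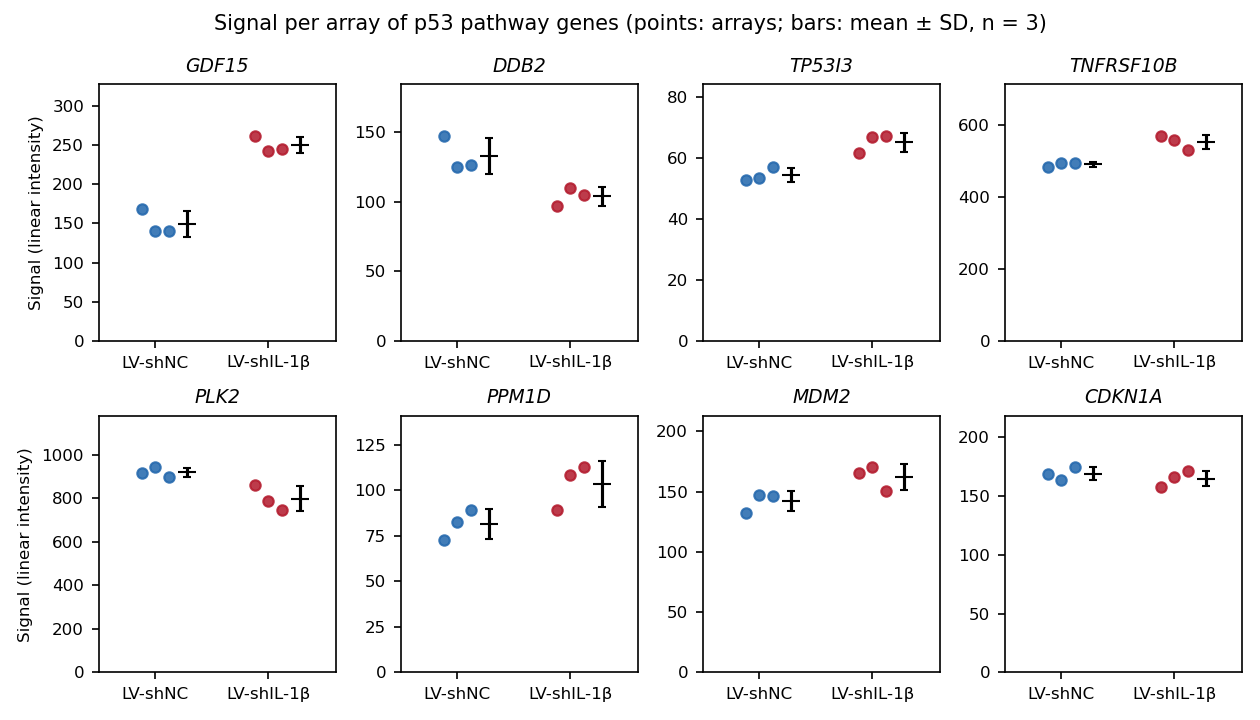
Signal of 8 p53 pathway genes on each array (vertical axis, linear intensity starting at 0), with LV-shNC in blue, LV-shIL-1β in red and the mean with its SD in black (n = 3). GDF15 lies at 149 on average in LV-shNC against 249.9 in LV-shIL-1β with no overlap, while CDKN1A lies at 169 and 165 with the groups interleaved.

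Among genes of DNA repair and nucleotide supply, DDB2 went the other way. DDB2 recognises ultraviolet photoproducts for nucleotide excision repair. Its signal was 147, 125 and 126 in LV-shNC against 96.7, 109.9 and 105 in LV-shIL-1β. Every LV-shIL-1β value was under every LV-shNC value, and LV-shNC array 1 was the highest of its group, as for GDF15. The log2 fold change was -0.35 ± 0.08 (SE, n = 3 in each group, 95% confidence interval -0.54 to -0.17, limma, Benjamini-Hochberg adjusted p = 0.0334). The array carried a single named probe set for DDB2, so no other probe set could be set beside it. The call did not hold without any one of the 6 arrays (limma, Benjamini-Hochberg adjusted p between 0.0547 and 0.0892). XPC, which finds helix-distorting lesions in the same repair pathway, stood at 0.14 ± 0.07, POLH, a polymerase that copies past photoproducts, at 0.03 ± 0.12, and RRM2B, the p53-inducible subunit of ribonucleotide reductase, at 0.09 ± 0.09, and none of these passed.

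Of the 5 regulators of p53, 3 had a positive log2 fold change and 2 a negative one, where 51.1% of all genes were positive. None was called by limma. MDM2, MDM4 and PPM1D were higher and CCNG1 lower at an unadjusted p under 0.05, where 13% of all genes were higher and 12% lower. MDM2 had signals of 132, 147 and 146 in LV-shNC against 166, 170.1 and 150.2 in LV-shIL-1β. The groups did not overlap, although LV-shIL-1β array 3 lay close to the control arrays. The log2 fold change was 0.19 ± 0.07 (SE, 95% confidence interval 0.03 to 0.35, limma, Benjamini-Hochberg adjusted p = 0.143). MDM4, which binds p53 and blocks its activity, had signals of 261, 216 and 251 in LV-shNC against 275, 275 and 271 in LV-shIL-1β. Its groups did not overlap, with a log2 fold change of 0.18 ± 0.07 (limma, Benjamini-Hochberg adjusted p = 0.169), and LV-shNC array 2 was the lowest of the 6.

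PPM1D, the phosphatase WIP1 that switches the damage response off, had the largest change among the regulators. Its signal was 72.7, 82.6 and 89.1 in LV-shNC against 89.1, 109 and 113 in LV-shIL-1β. The highest control array and the lowest LV-shIL-1β array carried the same value, so the groups met. The log2 fold change was 0.34 ± 0.10 (limma, Benjamini-Hochberg adjusted p = 0.0837). CCNG1, the p53-induced cyclin G1 that works with the phosphatase PP2A on MDM2, stood at -0.12 ± 0.05. Its groups did not overlap but nearly met, with 785.2 on the lowest LV-shNC array and 784.2 on the highest LV-shIL-1β array. TP53INP1, a nuclear cofactor of p53, stood at -0.09 ± 0.09, and neither gene passed.

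Among genes of cell cycle arrest and growth control, none of 6 was called by limma, and PLK2 alone had an unadjusted p under 0.05, in the lower direction, where 12% of all genes were lower and 13% higher. CDKN1A encodes p21, the inhibitor of cyclin-dependent kinases through which p53 halts the cell cycle. Its signal was 169, 163 and 174 in LV-shNC against 158, 166 and 171 in LV-shIL-1β. The arrays of the groups were interleaved, and the log2 fold change of -0.04 ± 0.06 (SE) had a 95% confidence interval of -0.17 to 0.10 (limma, Benjamini-Hochberg adjusted p = 0.771). PLK2, a polo-like kinase of the stress response, had signals of 915, 942 and 898 in LV-shNC against 859, 789 and 747 in LV-shIL-1β. The groups did not overlap, and the log2 fold change of -0.20 ± 0.05 lay just short of the threshold (limma, Benjamini-Hochberg adjusted p = 0.0539). Its relative PLK3 stood at 0.13 ± 0.09. GADD45A, a growth arrest gene induced by DNA damage, stood at -0.02 ± 0.05, and GADD45B, its stress and cytokine-induced relative, at -0.17 ± 0.11 with the widest spread between arrays of the 28 genes (a pooled SD within groups of 0.19 on the log2 scale). SFN, the 14-3-3σ protein of stratified epithelia that holds cells before mitosis, stood at 0.01 ± 0.03 with signals between 7043 and 7426, and its sign turned after median centring (-0.011).

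**Figure D2:**
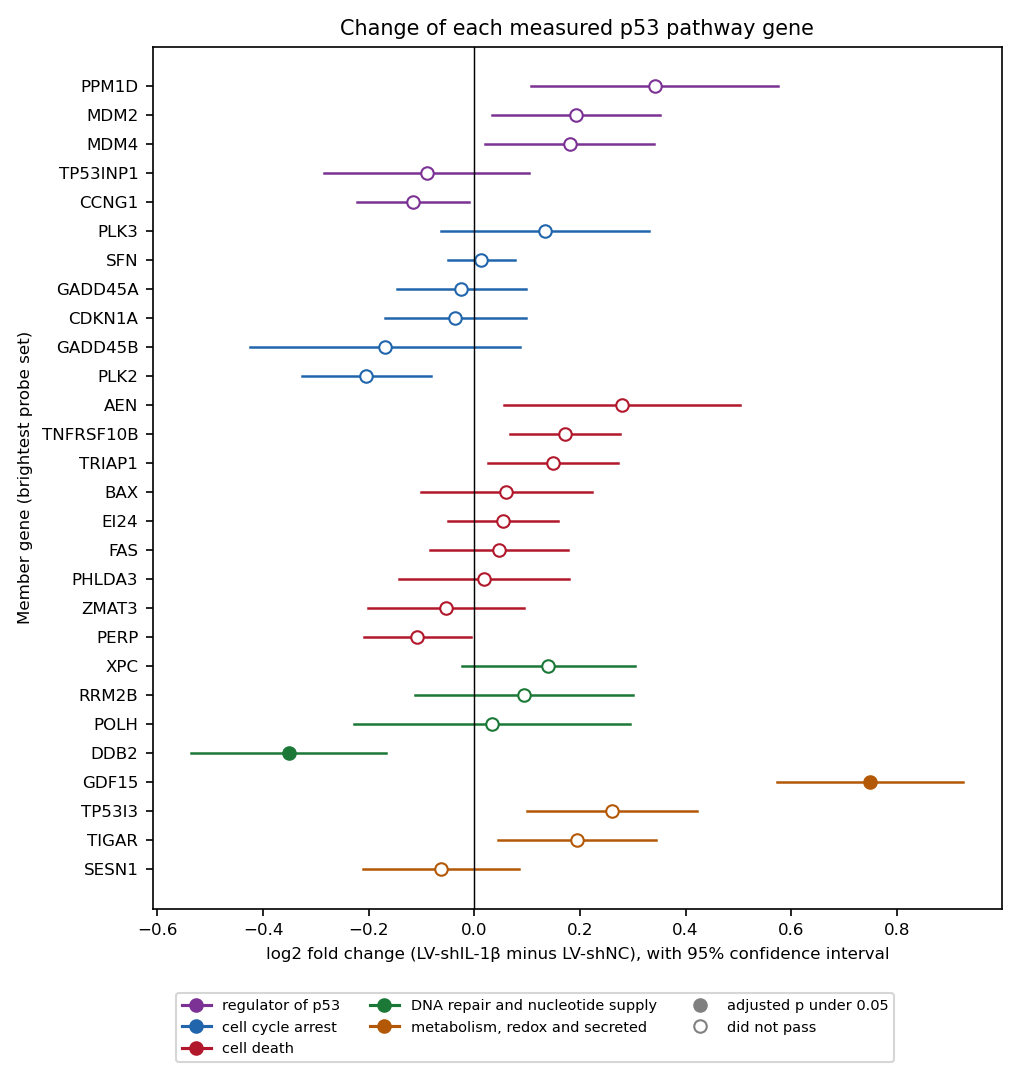
Log2 fold change of LV-shIL-1β over LV-shNC (horizontal axis) of the 28 measured genes, each on its brightest probe set and coloured by role, with the 95% confidence interval from limma as a line. Filled points passed the adjusted threshold, which GDF15 did at 0.75 and DDB2 at -0.35, and the open points lie between -0.20 and 0.34.

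Of 9 genes of cell death and survival, 7 had a positive log2 fold change with values from -0.11 to 0.28. None was called by limma on its brightest probe set, and at an unadjusted p under 0.05 TNFRSF10B, AEN and TRIAP1 were higher and PERP lower, where 13% and 12% of all genes were higher and lower and 51.1% were positive. TNFRSF10B, the death receptor DR5 for TRAIL, had signals of 483, 495 and 495 in LV-shNC against 571, 558 and 532 in LV-shIL-1β. The groups were well apart, and the log2 fold change of 0.17 ± 0.05 (SE) lay just short of the threshold (limma, Benjamini-Hochberg adjusted p = 0.0562). AEN, a nuclease that p53 induces in apoptosis, had signals of 74.9, 65.6 and 79.2 in LV-shNC against 77.7, 94.2 and 95.1 in LV-shIL-1β. Here the groups overlapped through LV-shIL-1β array 1, at a log2 fold change of 0.28 ± 0.10 (limma, Benjamini-Hochberg adjusted p = 0.129). TRIAP1, a small mitochondrial protein that protects from apoptosis, had signals of 487, 463 and 497 in LV-shNC against 503, 562 and 541 in LV-shIL-1β. These did not overlap, and the log2 fold change was 0.15 ± 0.06 (limma, Benjamini-Hochberg adjusted p = 0.143).

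FAS, the death receptor CD95, differed between its probe sets. On the brightest one its signals of 209, 214 and 212 in LV-shNC overlapped those of 205, 224 and 228 in LV-shIL-1β, at a log2 fold change of 0.05 ± 0.06 (limma, Benjamini-Hochberg adjusted p = 0.687). On the next brightest, signals of 139.9, 137 and 143 in LV-shNC went to 168, 168 and 167 in LV-shIL-1β. This probe set passed, at a log2 fold change of 0.26 ± 0.05 (95% confidence interval 0.14 to 0.38, limma, Benjamini-Hochberg adjusted p = 0.0211), and the groups lay far apart. The 2 other probe sets of FAS above the filter stood at 0.06 and 0.14 and did not pass. BAX, which opens the outer mitochondrial membrane, stood at 0.06 ± 0.07, PERP, a desmosomal protein of stratified epithelia and p53 target, at -0.11 ± 0.05, EI24, an endoplasmic reticulum protein also known as PIG8, at 0.05 ± 0.05, the RNA-binding ZMAT3 at -0.05 ± 0.07 and PHLDA3, an inhibitor of AKT, at 0.02 ± 0.07, and none of these passed.

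Of the 77 probe sets of the 28 genes, 58 lay above the filter, and all 28 genes kept the brightest probe set, each on all 6 arrays. Over 1 probe set was kept for 13 genes, and in 8 of them every kept probe set had the same sign, namely BAX, EI24, FAS, GADD45B, PERP, PHLDA3, TNFRSF10B and TP53INP1. For GADD45B all 4 lay below 0, from -0.24 to -0.08, and none passed. In ZMAT3 the brightest of 5 lay at -0.05 and the other 4 between 0.15 and 0.26, none of which passed. In MDM2, 4 of 5 were positive (0.15 to 0.25) and 1 negative (-0.06), and in MDM4 4 of 5 were positive (0.07 to 0.18) and 1 negative (-0.04). Apart from the brightest probe sets of GDF15 and DDB2, the FAS probe set above was the only one of the 58 that passed.

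**Figure D3:**
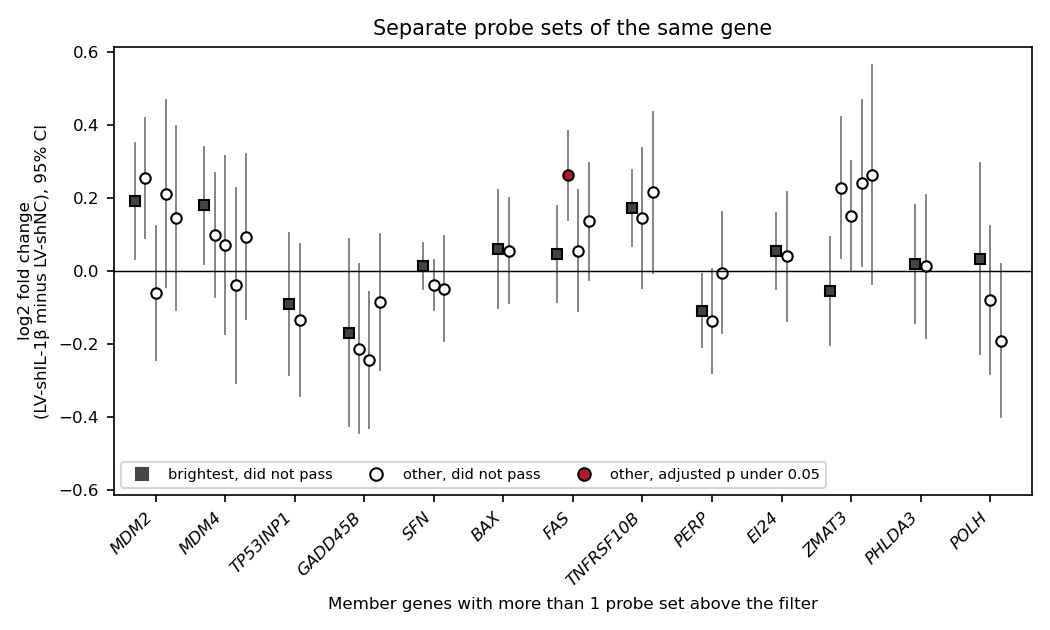
Log2 fold change (vertical axis, LV-shIL-1β minus LV-shNC, with 95% confidence interval) of each probe set above the filter for the 13 genes that had more than 1, ordered within a gene from the brightest on the left. Squares are the brightest probe sets, and 1 probe set of FAS in red passed at 0.26 while the brightest of FAS lay at 0.05.

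Without regard to the adjusted threshold, small upward differences were more frequent than downward ones. Of the 28 genes, 18 had a positive log2 fold change (64.3%, against 51.1% of all genes). All LV-shIL-1β arrays lay above all LV-shNC arrays for 8 of them (28.6%), where 15.9% of all genes did so. They lay below for 4 (14.3%), CCNG1, PLK2, DDB2 and SESN1, where 15.7% of all genes did so. At an unadjusted limma p under 0.05, 9 were higher (32.1%) and 4 lower (14.3%), while 13% and 12% of all genes were higher and lower. These shares describe genes picked for their shared pathway, with earlier results of these data known, and were not tested against other genes. The lean was weaker on 1 array, since the median of the genes' log2 signals, each set against its own mean over the 6 arrays, was -0.04, -0.03 and -0.02 in LV-shNC against -0.01, 0.05 and 0.03 in LV-shIL-1β. For all genes this median was between -0.01 and 0.01 in LV-shNC against -0.02, 0.02 and 0.01 in LV-shIL-1β, so LV-shIL-1β array 1 was also the lowest array over all genes. Without that array the median log2 fold change of the 28 genes was 0.08, with PPM1D and AEN called higher in addition to GDF15 (limma, Benjamini-Hochberg adjusted p = 0.0281 and 0.0455). In the same fit the median over all 12311 genes was 0.01, with 538 called higher and 460 lower. The spread between arrays of the 28 genes was like that of other genes, with a median pooled SD within groups of 0.08 on the log2 scale for both.

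The rest of the pathway was examined through lists of other p53 targets, p53 regulators and genes that p53 represses through p21 and the DREAM complex. Of 65 other targets, 55 passed the filter, 5 rose (9.09%, against 4.03% of all genes), 2 fell (3.64%, against 4.5%) and 48 did not pass. Their median log2 fold change was 0.02. By unadjusted limma p under 0.05, 9 were higher (16.4%, where 13% of all genes were) and 5 lower (9.09%, where 12% were). All LV-shIL-1β arrays lay above all LV-shNC arrays for 14 (25.5%) and below for 6 (10.9%), where 15.9% and 15.7% of all genes did so. The largest change was a fall of IGFBP3, which binds insulin-like growth factors, with mean signals of 5409 ± 44.4 (SD, n = 3) in LV-shNC against 3866 ± 87.4 in LV-shIL-1β. Its log2 fold change was -0.48 ± 0.03 (SE, limma, Benjamini-Hochberg adjusted p = 3.62e-05). The inflammatory caspase gene CASP1 fell as well (-0.16 ± 0.04), on a probe set open to cross-hybridisation by its name. The cytokine LIF (0.36 ± 0.09), the RNA sensor TLR3 (0.34 ± 0.08), the polymerase subunit REV3L (0.26 ± 0.06), the TRAIL receptor TNFRSF10A (0.25 ± 0.06) and the receptor kinase EPHA2 (0.22 ± 0.05) rose. The 5 that rose thus comprise a cytokine, 3 receptors and a polymerase subunit.

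Of 32 p53 regulators, 27 were measured, 2 rose (7.41%, against 4.03% of all genes) and 0 fell (against 4.5%). Their median log2 fold change was 0.06. At an unadjusted limma p under 0.05, 7 were higher (25.9%, where 13% of all genes were) and 1 lower (3.7%, where 12% were). For 9 regulators (33.3%) every LV-shIL-1β value was above every LV-shNC value, where 15.9% of all genes did so. For 1 (3.7%) every value was below, where 15.7% of all genes did so. The methyltransferase SETD7 (0.31 ± 0.06, SE) and TRIM28, a corepressor that works with MDM2 (0.18 ± 0.05), rose. TP73, which encodes the p53 relative p73, stood at -0.14 ± 0.08 on its brightest probe set and did not pass. Another of its 3 probe sets above the filter was lower and passed (23.5 to 16.8, -0.48 ± 0.11, limma, Benjamini-Hochberg adjusted p = 0.0321). That probe set was low and was kept through the LV-shNC arrays only, since every LV-shIL-1β value lay under the filter's signal of 18.6. Of 30 genes repressed through p21 and DREAM, 29 were measured, 0 rose (against 4.03% of all genes) and 2 fell (6.9%, against 4.5%). The median was -0.08. The genes that fell were the mitotic cyclin CCNB2 (-0.20 ± 0.04) and the mitotic kinesin KIF20A (-0.29 ± 0.04). At an unadjusted limma p under 0.05, 2 of the 29 were higher (6.9%, where 13% of all genes were) and 8 lower (27.6%, where 12% were). For 10 of the 29 every LV-shIL-1β value was under every LV-shNC value (34.5%, where 15.7% of all genes did so). For 1 of the 29 every LV-shIL-1β value was above (3.45%, where 15.9% of all genes did so). The lists were set side by side by their counts and medians only, and the difference between them was not tested.

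**Figure D4:**
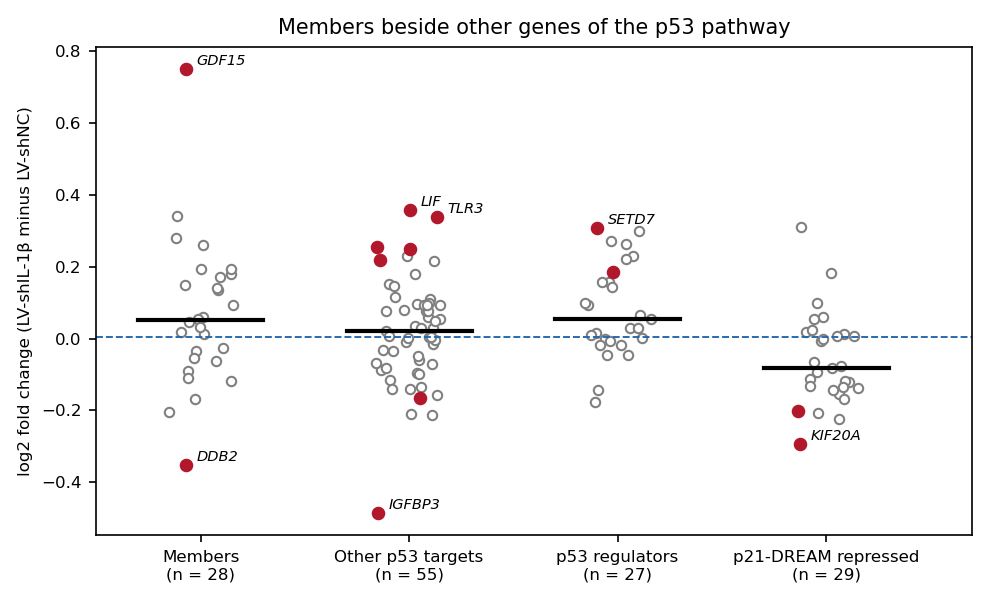
Log2 fold change (vertical axis, LV-shIL-1β minus LV-shNC) of each measured gene (points, spread sideways for clarity) in the 28 p53 pathway genes and in 3 other lists, with red points past the adjusted threshold, black bars at the list medians and the dashed line at the median of all genes. The medians are 0.05 for the pathway genes, 0.02 for other p53 targets, 0.06 for p53 regulators and -0.08 for genes repressed through p21 and DREAM.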

How the data were processed

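Gene expression was measured on 6 arrays, with 6 μg of total RNA used per labelling reaction per the labels. The authors deposited linear-scale intensities of 54675 probe sets, made with MAS5 (version not given) according to the submitters' processing notes. Background, normalization and detection settings were not given in the sources used here. Equal values recurred between arrays (up to 1.17% of probe sets in any pair), so the spread between arrays may be affected by processing across arrays, which was not tested. The number of arrays limits the precision.

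Here signals were put on the log2 scale, 62 control probe sets were dropped, and probe sets were kept where at least 3 arrays exceeded the median of all values (18.6), which left 27546. Two-sided tests of LV-shIL-1β over LV-shNC came from lmFit and eBayes of limma 3.58.1 (R 4.3.3), with a variance trend on mean signal and Benjamini-Hochberg adjustment over all kept probe sets at a threshold of 0.05, and the model was tested on simulated data. The study states a fold of 1.5 with p under 0.05, which was run beside it. A gene was represented by its probe set with the highest mean signal. Symbols came from the platform annotation and were looked up by Entrez identifier in RefSeq (41043 of 41097 single-symbol probe sets, 0 changed). The genes and lists were chosen with earlier results of these data known. All 31 genes are named, with values per array for IL1B, MDM2, CDKN1A, genes with a probe set past the threshold and the 8 others with the smallest p, and from other lists the genes past the threshold. The files name no genome build, and coordinates are those of the RefSeq promoters.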

Additional observations from a re-analysis of the deposited data

How the results depend on the processing

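Across 15 alternatives (14 for TP53INP1, PLK3 and POLH, which the stricter filter removed), 22 of the 28 genes kept their sign and 20 were called under none. GDF15 kept its direction (0.69 to 0.84 on the log2 scale) and passed in all but the methods' t-test (adjusted p = 0.0663), and DDB2 passed in 6, failing in each leave-one-out fit. Members called higher and lower numbered 1 and 1 in the report. They were 3 and 2 with the stricter filter (TP53I3, TNFRSF10B and PLK2 in addition), 3 and 2 when all probe sets of a gene were averaged (PPM1D, TP53I3 and PLK2), 1 and 2 after median centring (PLK2), 1 and 0 without the variance trend and with the replicate block, and the methods' t-test called 0 and 0. Leaving out 1 array gave 1 to 3 higher (3 without LV-shIL-1β 1) and 0 to 1 lower, and the lower ones were PERP without LV-shNC 1 and PLK2 without LV-shIL-1β 1. The share of all genes called in either direction moved too, from 8.53% in the report. It was 10.7% with the stricter filter, 12.5% with the mean over probe sets and 9.23% after median centring. Without the trend it was 5.68%, with the replicate block 2.76%, in the methods' t-test 1.44% and without single arrays 3.4% to 8.11%. The titles share replicate numbers, but same-numbered arrays deviated from their group means in opposite directions (correlations of -0.39, -0.11 and -0.21), so the numbers were not taken as pairs, and the replicate block called 568 probe sets in place of 1944. At an unadjusted p under 0.05 and a fold of 1.5, the methods' t-test passed 1 member, as limma did.

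Other p53 targets called higher and lower were 5 and 2 in the report, 2 and 1 without a filter, 3 and 3 after median centring, 1 and 1 without the trend, 0 and 1 with the replicate block and in the methods' t-test, and 7 and 4 with the mean over probe sets. They were 0 to 4 and 1 without single arrays. Regulators called higher were 2 in the report, 1 without a filter, after median centring and without the trend, 0 with the replicate block and the methods' t-test, 4 with the mean over probe sets, and 0 to 2 without single arrays. Genes repressed through p21 and DREAM called lower were 2 in the report, 1 without the trend and with the replicate block, 0 in the methods' t-test, 6 with the mean over probe sets and 1 to 3 without single arrays, and 1 was called higher with the stricter filter and 0 to 1 without single arrays. The counts over all genes also moved, with 8.53% called in the report, 12.5% with the mean over probe sets and 1.44% in the methods' t-test. The causes were not tested.

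The members' median of 0.05 was 0.0259 after median centring, 0.0294 after quantile normalization, 0.0697 with the mean over probe sets, and 0.0380 to 0.0772 without single arrays. Signs turned in 6 genes, none of which passed in the report. Without single arrays GADD45A ran from -0.0571 to 0.0153, SFN from -0.0010 to 0.0372, BAX from -0.0049 to 0.12, PHLDA3 from -0.0406 to 0.0516 and POLH from -0.0520 to 0.145. SFN stood at -0.0114 after median centring and -0.0246 with the mean over probe sets, where POLH stood at -0.0786 and ZMAT3 at 0.17. PHLDA3 stood at -0.0059 after median centring and -0.0034 after quantile normalization.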
